A study of Mus musculus with 7 samples.

Results

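The 10 Frizzled genes, Fzd1 to Fzd10, encode the receptors for the WNT ligands, and their chromatin was examined in MuSCs, the resident stem cells of skeletal muscle, which express PAX7 and rebuild fibers after injury. All 10 members were found among the 21440 protein-coding genes of the mouse for which a transcription start site (TSS) could be placed, and each was taken as its RefSeq span plus 20 kb on both sides. Accessibility was measured by ATAC-seq, in which the Tn5 transposase cuts and tags DNA where chromatin is open. Every library was made from 5000 MuSCs freshly sorted from hindlimb muscle of male mice a few weeks of age, with integrin alpha 7 as the positive marker and with CD31, CD45, CD11b and SCA1 as negative ones. There were 4 Nedd4L-cKO and 3 WT libraries. The Nedd4L-cKO mice carry Nedd4L fl/fl together with a Cre in Pax7, on a C57BL/6 background. An exon of the region that gives this E3 ubiquitin ligase its catalytic activity is thereby removed in Pax7-expressing cells and their progeny, myofibers included, while the gene is still transcribed. The genotype of the WT mice beyond that label is not given in the sources used here, and no library was made from activated cells.

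Frizzled proteins are multipass receptors of the cell surface that bind a WNT through a cysteine-rich domain outside the cell. Together with LRP5 or LRP6 they stabilize β-catenin, and with other partners they steer planar cell polarity and calcium signaling. By sequence the family falls into the groups Fzd1, Fzd2 and Fzd7, Fzd5 and Fzd8, Fzd4, Fzd9 and Fzd10, and Fzd3 and Fzd6. In MuSCs, FZD7 is known as the receptor through which WNT7A promotes symmetric expansion of the stem cell pool, and several members are known to act redundantly with a near paralog.

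The promoters of Fzd1 and Fzd10 are shown first because they had the highest and the lowest rank by pileup among the Frizzled promoters with a sequence in the promoter table used here. Those of Fzd9 and Fzd7 were added after their values had been seen, Fzd7 for its known role in MuSCs. Fzd9 was added because its fold ranks were higher in all Nedd4L-cKO than in all WT libraries. This held for 1 of 24 Frizzled regions and for 2.67% of all regions. By pileup and by peak length the genotypes overlapped in Fzd9, and its difference did not pass the test given below. Each line gives the 250 bases before the TSS, 5′ to 3′ on the strand of the gene, from RefSeq on GRCm38.p6, which is the mm10 assembly, with each CpG in capitals. Fzd1 was read from chr5:4758217-4758466 on the minus strand, Fzd7 from chr1:59481897-59482146 on the plus strand, Fzd9 from chr5:135251048-135251297 on the minus strand and Fzd10 from chr5:128600856-128601105 on the plus strand.
Fzd1: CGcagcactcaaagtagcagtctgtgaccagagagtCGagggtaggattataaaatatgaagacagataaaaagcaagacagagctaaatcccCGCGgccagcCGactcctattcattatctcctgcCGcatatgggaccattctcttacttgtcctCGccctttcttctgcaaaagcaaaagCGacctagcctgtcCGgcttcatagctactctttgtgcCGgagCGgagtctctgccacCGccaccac
Fzd7: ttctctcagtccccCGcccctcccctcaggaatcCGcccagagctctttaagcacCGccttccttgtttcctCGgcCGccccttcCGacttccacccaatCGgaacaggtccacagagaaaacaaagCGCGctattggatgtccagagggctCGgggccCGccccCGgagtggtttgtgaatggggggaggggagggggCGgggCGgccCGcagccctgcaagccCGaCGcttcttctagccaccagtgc
Fzd9: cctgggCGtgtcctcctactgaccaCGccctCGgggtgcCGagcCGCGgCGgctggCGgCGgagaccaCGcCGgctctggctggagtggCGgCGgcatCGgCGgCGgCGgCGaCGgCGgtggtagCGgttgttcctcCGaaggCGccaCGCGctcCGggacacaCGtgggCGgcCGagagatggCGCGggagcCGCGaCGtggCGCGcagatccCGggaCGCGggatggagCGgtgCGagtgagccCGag
Fzd10: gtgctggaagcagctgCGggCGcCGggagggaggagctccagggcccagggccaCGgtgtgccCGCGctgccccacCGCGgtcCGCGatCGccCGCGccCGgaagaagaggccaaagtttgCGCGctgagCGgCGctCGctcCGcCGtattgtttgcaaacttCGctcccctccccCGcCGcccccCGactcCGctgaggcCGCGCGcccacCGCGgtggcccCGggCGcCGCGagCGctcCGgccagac

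The table matched 6 of the 10 genes (Fzd1, Fzd4, Fzd5, Fzd7, Fzd9 and Fzd10) and holds 300 bases of each, 250 before the TSS and 50 after it. Over these 300 bases Fzd9 held 53 CpGs, Fzd10 45, Fzd5 38, Fzd4 32, Fzd7 24 and Fzd1 16. The median was 21 in the 5635 listed promoters with a peak in all 7 libraries and 2 in the 4507 with a peak in none, so that Fzd1 alone among the 6 lay below the median of open promoters. A GC box (GGGCGG or CCGCCC) was present in 5 of the 6, all but Fzd1, against 66.6% of the 5635 open promoters and 40.6% of all 10629 searched. A CCAAT box (CCAAT or ATTGG) was present in Fzd4, Fzd5 and Fzd7, against 40.3% of open and 40.3% of all promoters. Fzd1 held the only match to a TATA box (TATAAA or TTTATA), which 8.31% of open and 16.8% of all promoters hold. This match lay in the outer part of the printed line, away from the TSS. All motifs were counted anywhere in the 300 bases and on either strand, without regard to position. Fzd10 held the only E-box of the form CAGCTG, a form bound by myogenic factors, which 14.7% of open and 14.4% of all promoters hold. The TCF/LEF motif ATCAAAG or CTTTGAT, the DNA element read by β-catenin's partners, was in none of these 6 windows, in 2.47% of open and in 3.74% of all promoters.

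In each library the authors called broad peaks on their own, without a control, with 69302 to 79158 peaks per library from 14.4 M to 20.1 M (mega) tags kept. Nedd4L-cKO replicate 4 was the deepest, and it had the highest unscaled pileup at 8 of the 10 Frizzled promoters. WT replicate 3 was the shallowest and the only library of lane 2. The promoters of all 8 muscle stem cell markers examined (Pax7, Myf5, Itga7, Vcam1, Cd34, Calcr, Sdc4 and Cdh15) held a peak in every library, against 59.7% of all promoters. Of 15 markers of other cells, 7 (46.7%, against 34.7% of all promoters) held none in any library (Ptprc, Itgam, Cd68, Pecam1, Cdh5, Pdgfra and Ly6a). Rgs5 held one in 1 library and Ckm in 5. The other 6 (40%, against 59.7% of all promoters) held one in all 7 (Kdr, Dpt, Acta2, Myh11, Acta1 and Myh4). Cd68, Pecam1, Cdh5 and Pdgfra nonetheless had a peak within their span in all 7 libraries, as did Rgs5 and Ckm. The nearest peak lay 1698 to 1772 bp from the outermost TSS of Cd68 and 1031 to 2465 bp from that of Pdgfra. Ptprc, Itgam and Ly6a had no peak within their span in any library. Median pileup ranks, as percentiles among all peaks of a library, ran from 60.0 in Cd34 to 99.0 in Sdc4 among the stem cell markers. They ran from 50.7 in Kdr to 96.7 in Acta2 among the 6 other markers called in all 7 libraries. The part of other cells in the Frizzled peaks was not tested.

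All 10 Frizzled promoters, taken as the TSS ± 1 kb, were called open in all 4 Nedd4L-cKO and all 3 WT libraries. Across the genome 12807 of 21440 promoters (59.7%) were called in all 7 libraries and 7441 (34.7%) in none, so that no closed paralog exists among the members to set beside the open ones. Each promoter was overlapped by exactly 1 peak in every library, and in every case that broad peak also held a narrow peak. What separated the paralogs was therefore how strong, how enriched and how long the promoter peak was. These are described with the pileup, which is the mean tag coverage over the peak, and with the fold enrichment, which is the pileup over a background taken from the same library, genome-wide or from the surrounding 10000 bp, whichever was higher. As libraries were not scaled to one another, each value was turned into its percentile among all peaks of its own library (100 being the highest).

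By pileup, Fzd1, Fzd4 and Fzd7 stood at the top. Fzd1 (chr5:4753839-4758216, minus strand), a receptor of the same group as FZD7, ranked at percentiles 97.1, 98.8, 98.2 and 98.4 in Nedd4L-cKO replicates 1 to 4 and at 96.9, 98.1 and 95.8 in WT replicates 1 to 3. The promoter peak of Fzd1 thus lay above percentile 95 in every library, and the genotypes overlapped. Fzd4 (chr7:89404366-89410110, plus strand), which also serves as the receptor of norrin in retinal vessels, ranked at 94.5, 97.5, 96.7 and 97.5 in Nedd4L-cKO and at 96.7, 96.4 and 96.0 in WT. Its peak also covered the TSS of Tmem135, a gene that runs the other way, so the signal cannot be assigned to either gene. Fzd7 (chr1:59482147-59486955, plus strand) ranked at 95.8, 96.0, 95.7 and 96.7 in Nedd4L-cKO and at 95.5, 96.3 and 97.0 in WT. This was the narrowest spread of pileup ranks in the family, with 95.5 as the lowest and 97.0 as the highest value. The ranges of these 3 genes overlapped one another and lay above all values of the next gene, Fzd8.

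The middle of the order held Fzd8, Fzd9, Fzd5, Fzd3, Fzd2 and Fzd10, and the ranges of neighbours among them overlapped. Within single libraries some neighbours kept a steadier order. Fzd8 ranked above Fzd9 in all libraries but Nedd4L-cKO replicate 4, and Fzd3 above Fzd2 in all but Nedd4L-cKO replicate 1. Likewise Fzd2 ranked above Fzd10 in all but Nedd4L-cKO replicate 2, whereas the order of Fzd9, Fzd5 and Fzd3 varied more. Fzd8 (chr18:9212856-9216201, plus strand) had a median pileup percentile of 93.3, with values from 90.3 to 94.4. Its nearest paralog Fzd5 (chr1:64730558-64737750, minus strand), a receptor needed in eye and gut development, had a median of 87.8 and a range of 86.5 to 89.0. Fzd9 (chr5:135248938-135251047, minus strand), studied in brain and bone, had a median of 88.2 and ranged from 86.1 to 92.1. Fzd3 (chr14:65192441-65262463, minus strand), a planar polarity receptor required for axon tracts, had a median of 87.1 and ranged from 84.1 to 89.1. Fzd2 (chr11:102604431-102608058, plus strand) followed with a median of 82.8 (80.2 to 85.1) and Fzd10 (chr5:128601106-128604093, plus strand) with 81.1 (73.3 to 82.3).

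Fzd6 was the weakest member. Fzd6 (chr15:39006149-39038192, plus strand), which acts with Fzd3 in planar polarity and orients hair follicles, ranked at 55.9, 55.5, 43.4 and 54.4 in Nedd4L-cKO and at 48.7, 39.3 and 44.4 in WT. All 7 values lay below the lowest value of any other Frizzled gene, 73.3 in Fzd10. The promoter region of Fzd6 also overlaps Gm26704, a long noncoding RNA gene. In unscaled pileup the Fzd6 peak held 12.6 to 18.5 tags per base and the Fzd1 peak 49.9 to 69.1. Fzd6 was also the member closest to the calling limit, since at a -log10 q of at least 5 it was no longer called in every library and the count of Frizzled promoters open in all 7 fell to 9. Set among promoter peaks alone, its median pileup percentile was 11.2, against 92.7 for Fzd1.

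**Figure D1:**
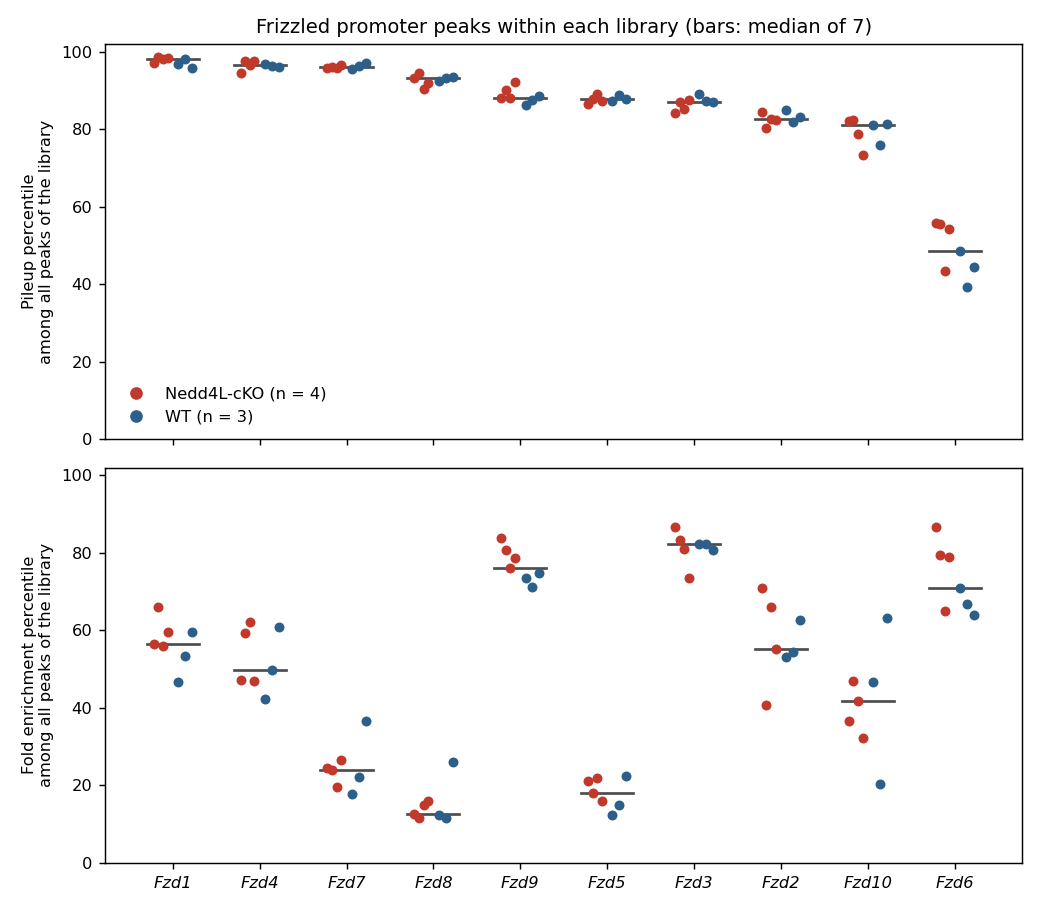
Percentile of the promoter peak of each Frizzled gene among all peaks of the same library, by pileup (upper panel) and by fold enrichment (lower panel), with 1 point per library (Nedd4L-cKO, n = 4, and WT, n = 3) and a bar at the median of 7. By pileup Fzd6 lies alone at a median of 48.7, whereas by fold enrichment Fzd3, Fzd9 and Fzd6 lie at the top and Fzd8 at the bottom.

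The order by fold enrichment was a different one. The median fold percentiles were 82.2 for Fzd3, 75.96 for Fzd9 and 71.0 for Fzd6, followed by 56.5 for Fzd1, 55.2 for Fzd2 and 49.7 for Fzd4. The lower end held Fzd10 at 41.9, Fzd7 at 23.9, Fzd5 at 17.97 and Fzd8 at 12.6. The ranges of neighbours overlapped at every step of this order, but the ends did not meet, as Fzd3 was never below 73.6 and Fzd8 never above 26.0. Fzd7 and Fzd8 thus had a high pileup and a low fold. In Fzd8 the pileup was 42.7 to 51.4 tags per base and the fold 2.76 to 3.19, so that the pileup divided by the fold, a measure of the local background, had a median of 16.9. In Fzd6 the same quotient had a median of 3.33, with a fold of 4.05 to 5.29. Among all 12807 promoters open in every library the median fold percentile was 79.3, and 9 of the 10 Frizzled medians lay below it, whereas 7 of 10 lay above the median pileup percentile of 86.6.

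The low ranks by fold went together with long peaks. The median length of the promoter peak was 3135 bp in Fzd8, 2912 bp in Fzd5, 2879 bp in Fzd7 and 2797 bp in Fzd10, against 1315 bp over all open promoters. Among the promoter peaks of a library, these 4 had median length percentiles of 99.3, 98.9, 98.9 and 98.6. Fzd1 at 2110 bp, Fzd2 at 1979 bp and Fzd4 at 1919 bp were intermediate. Fzd3, Fzd6 and Fzd9 were short, at 1192, 1160 and 1104 bp, and 1731 bp, the lowest value of Fzd4, exceeded the highest value of each of the 3. Across the 10 genes the Spearman correlation of median length with median fold percentile was -0.92, and across the 12807 open promoters it was -0.34. Length and pileup percentile had correlations of 0.26 and 0.34 over the same sets. The genes share the same 7 libraries, and the part of the local background, which is read from a window that includes the peak itself, in these orders was not tested.

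**Figure D2:**
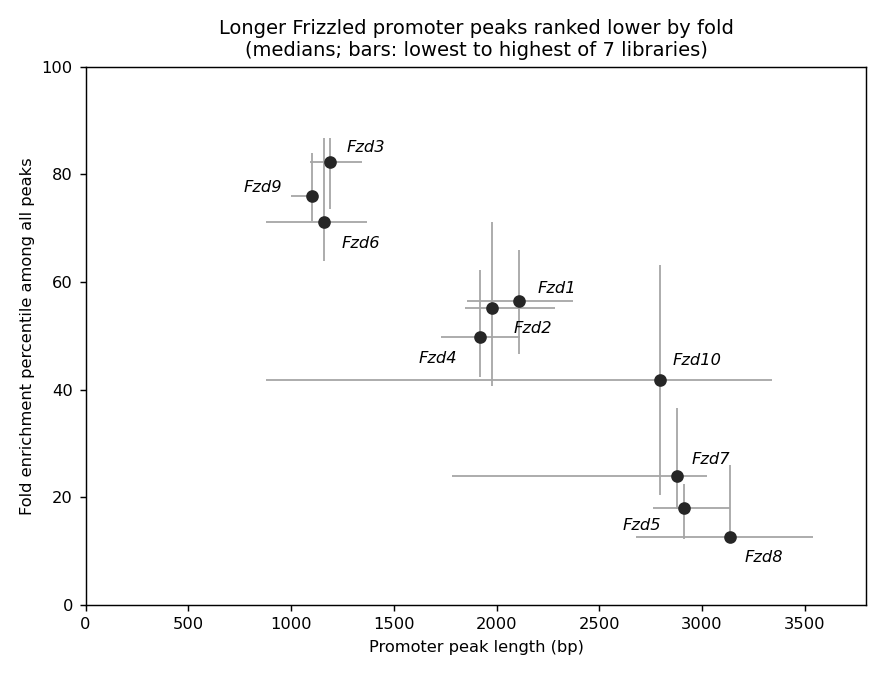
Median fold enrichment percentile of the promoter peak against its median length in bp for the 10 Frizzled genes, with bars from the lowest to the highest of 7 libraries. Fzd3, Fzd6 and Fzd9, with medians of 1104 to 1192 bp, lie at the upper left, and Fzd5, Fzd7 and Fzd8, with medians of 2879 to 3135 bp, lie at the lower right.

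Near paralogs were alike in peak length in some groups and not in others. Fzd5 and Fzd8 both had long peaks that reached from over 1 kb before the TSS into the gene, and Fzd3 and Fzd6 both had short ones. Within the other groups, Fzd7 was longer than Fzd1 and Fzd2 by the median, and Fzd10 longer than Fzd9 and Fzd4. The gene models differ too, since Fzd1, Fzd2, Fzd8, Fzd9 and Fzd10 have 1 exon in their canonical GENCODE transcript, Fzd4, Fzd5 and Fzd7 have 2, and Fzd3 and Fzd6 have 7. In the compact gene Fzd8 the promoter peak covered 44.2% to 58.8% of the gene span, with a median of 55.1%. In Fzd7 the median was 40.8% and in Fzd1 34.8%, whereas in the long genes Fzd3 and Fzd6 it was 1.01% and 2.21%.

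Fzd10 showed the widest range of peak length between libraries. A single long peak ran from 2.3 to 2.6 kb before the TSS into the gene in Nedd4L-cKO replicates 1, 3 and 4 and in WT replicate 2, with lengths of 3341, 2797, 3081 and 3103 bp. In Nedd4L-cKO replicate 2, WT replicate 1 and WT replicate 3 the same stretch was called as 2 peaks, a TSS peak of 1334, 1280 and 880 bp and an upstream peak of 522, 617 and 540 bp, with gaps of 1286, 772 and 1233 bp between them. The outer end lay at almost the same place in the split and the joined form, with starts at positions -2581 to -2288 from the TSS, so the libraries differed in whether the middle was called. The stretch also overlaps Fzd10os, a long noncoding RNA gene. The fold percentile of the TSS peak was 47.0, 46.6 and 63.1 in the 3 libraries with the split form and 36.5, 41.9, 32.3 and 20.4 in the 4 with the joined form. The fold percentiles of Fzd10 thus did not overlap between libraries with the split and with the joined form, while each form was seen in both genotypes. As the pileup is a mean over the called peak, the fold depends on which stretch is called. In the split form the upstream peak had a fold of 2.24 to 2.88 and the TSS peak one of 3.54 to 4.18. How much of the difference comes from this was not tested.

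Fzd7 showed the same in a single library. Its promoter peak was 2952, 3017, 2879 and 2871 bp long in Nedd4L-cKO and 2824 and 3026 bp in WT replicates 1 and 2, but 1784 bp in WT replicate 3, where a further peak of 259 bp lay downstream after a gap of 775 bp. That library also gave the highest fold percentile of Fzd7, 36.7 against 17.8 to 26.4 in the other 6, and of Fzd8, 26.0 against 11.5 to 15.9. WT replicate 3 had the highest fold percentile for 4 of the 10 promoters, as did Nedd4L-cKO replicate 1 for another 4, and WT replicate 3 had the shortest peak for 4. WT replicate 1 had the lowest fold percentile for 4. Whether lane or depth had a part in this was not tested.

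**Figure D3:**
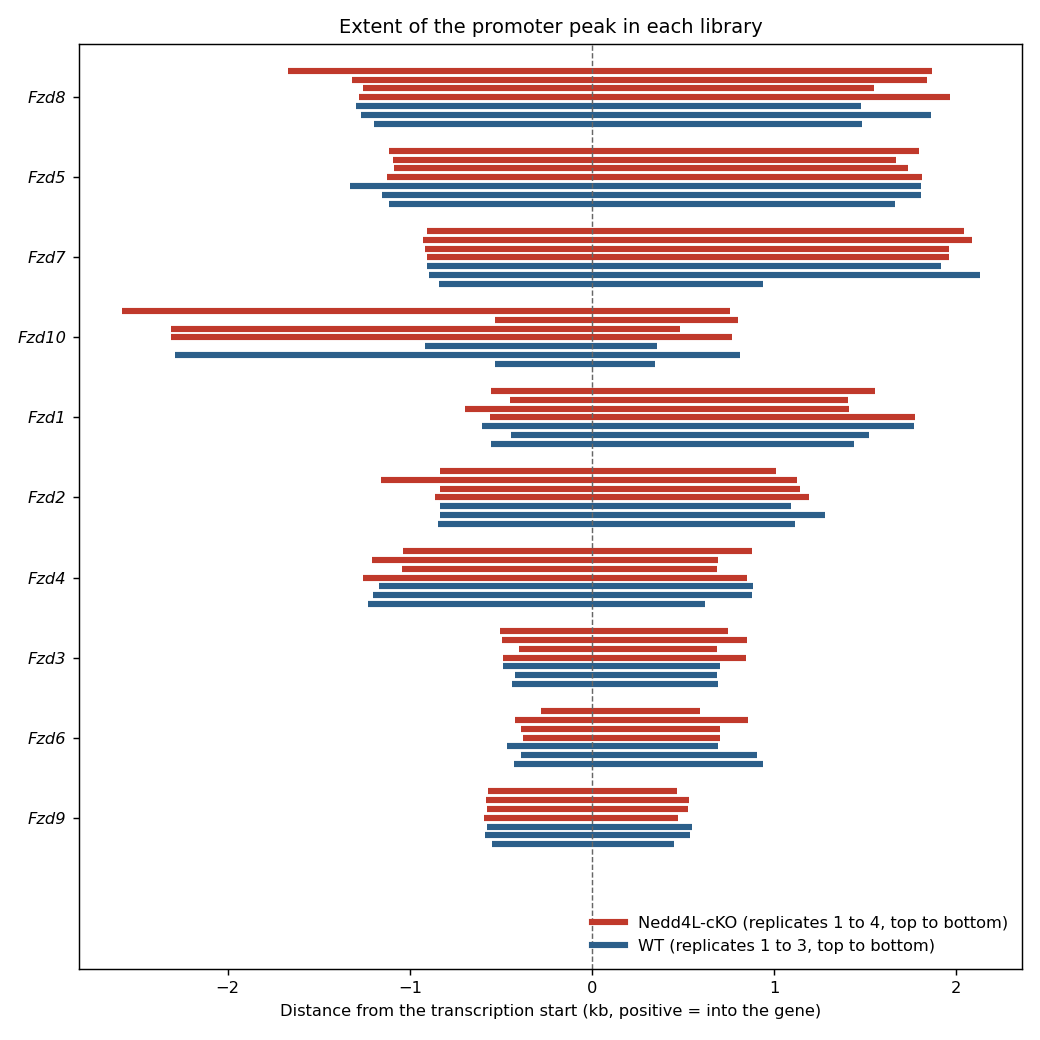
Extent of the promoter peak in each library as distance from the TSS in kb, with positive values into the gene, ordered by median length (Nedd4L-cKO replicates 1 to 4 above WT replicates 1 to 3). In Fzd10 the peak reaches beyond 2 kb upstream in 4 libraries and ends within 1 kb in the other 3, and in Fzd7 WT replicate 3 alone is short at 1784 bp.

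Beyond the promoters the 10 loci held 20 further merged regions, 12 upstream, 7 downstream and 1 inside a gene. Of these 14 were called in all 7 libraries, 2 in 2 libraries and 4 in 1 library. Fzd9 was the richest locus, with 5 regions called in every library, whereas in the loci of Fzd1, Fzd3 and Fzd8 the promoter was the only region called in every library. No Frizzled region was called in all libraries of one genotype and in none of the other. Across the genome 66 of 95163 regions (0.0694%) were called in all Nedd4L-cKO and no WT library and 78 (0.082%) the other way round.

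The regions with the highest median fold percentile of their locus, where they were not the promoter, were found in the loci of Fzd9, Fzd10, Fzd5 and Fzd7, and none of them overlapped another annotated gene. In the Fzd9 locus it was chr5:135258171-135259669, 7124 bp before the TSS, with a median fold percentile of 86.4 and a fold of 4.77 to 5.87. The Fzd9 promoter had a median of 75.96 and a fold of 4.37 to 5.11, so the folds of both overlapped. In the Fzd10 locus it was chr5:128618844-128620116, 17738 bp downstream of the TSS, with a median of 82.02 against 41.9 for the promoter. In the Fzd5 locus it was chr1:64756001-64757910, 18251 bp upstream, with a median of 68.0 against 17.97. In the Fzd7 locus it was chr1:59464152-59465847, 16300 bp upstream, with a median of 62.9 against 23.9. By pileup these distal regions ranked lower than their promoters, with medians of 74.1, 61.9, 45.6 and 33.5. In the Fzd4 locus the highest region by fold was the promoter at 49.7, closely followed at 49.6 by chr7:89388036-89389797, which lies in Tmem135. The only region inside a Frizzled gene and apart from its promoter was chr5:135248825-135249666 at the far end of Fzd9, with a median fold percentile of 14.2. Of the regions called in 2 libraries, the one upstream of Fzd1 (chr5:4767683-4768170) was seen in Nedd4L-cKO replicate 4 and WT replicate 1. The other, at the TSS of Fbxo16 beside Fzd3 (chr14:65266277-65266743), was seen in Nedd4L-cKO replicate 4 and WT replicate 3.

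The comparison of Nedd4L-cKO with WT asks whether the loss of Nedd4L changes the accessibility of these receptor genes in freshly sorted MuSCs. No Frizzled region passed the test. For all 53245 regions called in every library, the rank of the fold within the library was turned into a normal score, in units of 1 SD of the ranks, and fitted with limma. With Benjamini-Hochberg adjustment over all regions, 0 of the 24 Frizzled regions had an adjusted p under 0.05, as did 0 of all regions (0%), and 0 of the 24 had an unadjusted p under 0.05, against 2120 of all (3.98%). The shifts, as Nedd4L-cKO minus WT, ran from -0.58 to 0.39, and 13 of the 24 were above 0, with a median of 0.051 against 0.015 over all regions. This balance rested on single libraries, as without WT replicate 3 there were 20 of 24 above 0 with a median of 0.14, and without WT replicate 1 there were 12 of 25 with a median of -0.0068. The median was 0.025, 0.014 and 0.10 without Nedd4L-cKO replicates 1, 3 and 4, and by pileup it was -0.020 with 10 of 24 above 0. For the 10 promoters they ran from -0.13 in Fzd10 to 0.37 in Fzd6.

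Fzd6 and Fzd9 had the largest upward shifts among the promoters. The Fzd6 shift was 0.37 ± 0.22 (SE, 95% interval -0.11 to 0.85), with an unadjusted p = 0.118 and an adjusted p = 1.00 by limma. Its fold percentiles were 86.7, 79.5, 65.0 and 79.0 in Nedd4L-cKO and 71.0, 66.8 and 63.9 in WT, so the genotypes overlapped through Nedd4L-cKO replicate 3. The shift was 0.23 without Nedd4L-cKO replicate 1 and 0.50 without Nedd4L-cKO replicate 3. In the latter fit the unadjusted p by limma was 0.0355, and over all alternatives the adjusted p was 0.889 or higher. For Fzd9 the shift was 0.24 ± 0.17 (SE, 95% interval -0.14 to 0.62), with an unadjusted p = 0.184 and an adjusted p = 1.00 by limma. Its fold percentiles were 83.9, 80.7, 75.96 and 78.6 in Nedd4L-cKO and 73.6, 71.2 and 74.7 in WT. Fzd9 was the only one of the 24 regions in which all Nedd4L-cKO libraries lay above all WT libraries, which was the case for 2.67% of all regions, and none lay wholly below, against 2.09%. By pileup the Fzd9 shift was 0.12, and the libraries overlapped, with 87.9 to 92.1 in Nedd4L-cKO and 86.1 to 88.7 in WT.

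Fzd7, the known MuSC receptor, had a shift of -0.081 with a 95% interval of -0.49 to 0.33, and Fzd1 one of 0.17 with an interval of -0.23 to 0.56. The promoters of Fzd2, Fzd3, Fzd4 and Fzd5 shifted by 0.038, -0.022, 0.064 and 0.070. Fzd8 and Fzd10 shifted by -0.13 each, and the interval of Fzd10, -0.77 to 0.51, was the widest of the family. All 10 intervals included 0. Their lower ends ran from -0.77 in Fzd10 to -0.11 in Fzd6 and their upper ends from 0.27 in Fzd8 to 0.85 in Fzd6. The intervals are not adjusted over all regions, so shifts within them, and also larger ones, could have been missed. Without WT replicate 3, which leaves lane 1 alone, the shifts of Fzd7, Fzd8 and Fzd10 became 0.069, 0.0097 and 0.14, with no adjusted p under 0.05.

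**Figure D4:**
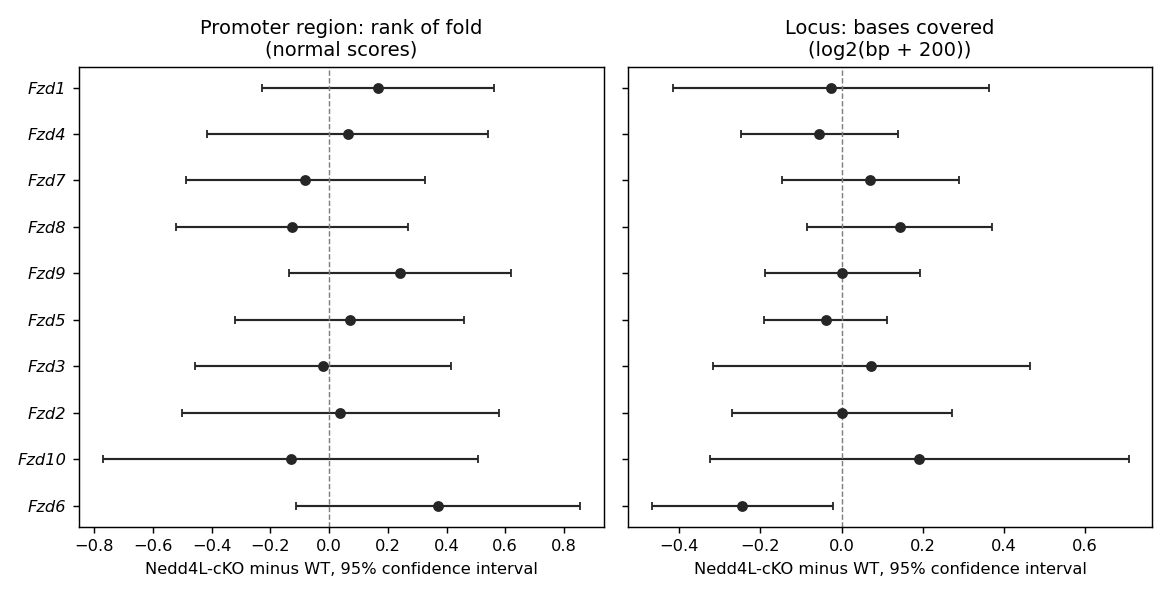
Difference between Nedd4L-cKO and WT for each Frizzled gene, as points with 95% confidence intervals from limma. The left panel shows the rank of fold of the promoter region in normal scores and the right panel the bases covered by peaks in the locus on the log2(bp + 200) scale. All intervals on the left include 0, and on the right that of Fzd6 (-0.47 to -0.020) lies below it without passing the adjustment over all loci.

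The bases covered by peaks in each locus were compared as well, since this measure also takes regions that were not called everywhere. Fzd5 and Fzd4 had the most covered bases, with medians of 4856 and 4858 bp, and Fzd3 the fewest, with 1250 bp. None of the 10 loci had an adjusted p under 0.05 by limma over the 17796 loci of protein-coding genes with a peak, of which 1 did (0.00562%). At an unadjusted p under 0.05 there was 1 Frizzled locus of 10, against 2.49% of all loci. That locus was Fzd6, with 2633, 3118, 3049 and 2839 bp in Nedd4L-cKO and 3907, 3237 and 3319 bp in WT. The highest value, in WT replicate 1, came from 3 peaks, whereas each other library had 4 peaks in this locus. Whether joined or split calls had a part in this was not tested. Every Nedd4L-cKO library lay below every WT library, as in 1.26% of all loci, and none of the 10 lay wholly above, against 1.87%. The log2(bp + 200) difference was -0.24 ± 0.095 (SE, 95% interval -0.47 to -0.020), with an unadjusted p = 0.0365 and an adjusted p = 1.00 by limma. The direction was opposite to that of its promoter by fold. With peaks of a -log10 q of at least 5 alone the difference turned to 0.11 ± 0.996 (SE), a far wider error. The unadjusted p by limma was 0.179 for the gene span alone, 0.276 with 50 kb flanks and 0.149 with the replicate block. It was 0.135 without WT replicate 1, and 0.0849 and 0.0681 without Nedd4L-cKO replicates 1 and 4. It stayed under 0.05 with a pseudocount of 1000 bp (0.0369) and with depth as a covariate (0.0419). The same held without Nedd4L-cKO replicates 2 (0.0361) and 3 (0.0460) and without WT replicates 2 (0.0369) and 3 (0.0494). Over all alternatives the adjusted p by limma was 0.988 or higher. The difference itself was -0.15 with 50 kb flanks. The other 9 differences ran from -0.055 in Fzd4 to 0.19 in Fzd10.

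Most other promoters of the pathway were called as well. Of 68 other genes of WNT signaling, 55 (80.9%) had a promoter peak in all 7 libraries, 8 in some and 5 (7.35%) in none, beside 59.7% and 34.7% of all promoters in all and in none. All 7 co-receptors (Lrp5, Lrp6, Ror1, Ror2, Ryk, Ptk7 and Sdc4) were called in every library, as were all 6 nuclear factors and all 7 planar polarity genes. Sdc4 is at the same time one of the muscle stem cell markers above. Among the genes that set how much Frizzled stays at the cell surface, the ubiquitin ligases Znrf3 and Rnf43, which remove Frizzled, and their counterparts Lgr4, Lgr5 and Lgr6 were called in every library. Znrf3 had a median pileup percentile of 89.7 and Rnf43 of 55.0, and Lgr4, at 97.8, ranked beside Fzd1. The R-spondins Rspo1 and Rspo3 were called throughout, whereas Rspo2 and Rspo4 were each called in 1 WT library, at pileup percentiles of 3.37 and 12.2.

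Of the ligands, 12 of 19 (63.2%) were called in all libraries, a share near the 59.7% of all promoters. Wnt7a, the ligand of FZD7 in MuSCs, was called in 5 libraries, 2 Nedd4L-cKO and 3 WT, with a median pileup percentile of 32.8 where called. Wnt10b was called in 5 (median 73.6), Wnt3 in 4 (median 8.06) and Wnt9b in 1 (5.80). The peak nearest to the Wnt10b TSS lay at most 1144 bp away in every library, so uncalled libraries missed the 1 kb window narrowly. The Wnt9b call, in Nedd4L-cKO replicate 2, had a fold percentile of 18.6, equal to the lowest of Wnt3. Their TSSs lie close together (chr11:103775272 and chr11:103774175), and whether both calls are the same peak was not tested. Wnt6, Wnt8a and Wnt8b were called in none. These 3 genes nonetheless had a peak within their span in all 7 libraries, and the peak nearest to their outermost TSS lay 4438 to 4550 bp, 3058 to 3206 bp and 5560 to 5824 bp away. Of 10 secreted inhibitors 8 were called throughout, Sfrp5 in 1 WT library at 11.1, and Dkk1 in none. Of 10 cytoplasmic transducers 8 were called throughout. Axin2, a direct target of β-catenin, was called in 6 libraries, 3 of each genotype, with a median pileup percentile of 67.4 and a median fold percentile of 2.60. Axin1 was called in none at its outermost annotated TSS, from which the nearest peak lay 6882 to 7040 bp away, and it had a peak within its span in all 7 libraries.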

How the data were processed

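ATAC-seq libraries of 4 Nedd4L-cKO and 3 WT mice were grouped by the genotype in their labels. The authors trimmed reads with Trimmomatic 0.39, aligned them to mm10 with BWA 0.7.17 and removed duplicates with Picard 2.26.3. Per the file headers, they called broad peaks in each library with MACS2 2.2.7.1, without a control, with a tag shift of -100 bp and an extension of 200 bp, at q-value limits of 0.1 (broad) and 0.05 (narrow). The deposited pileup is a signal (mean tag coverage), the deposited fold enrichment a ratio to local background, and the deposited p-value and q-value are given as -log10. No counts were used. Pileup and fold were compared between libraries mainly as percentiles and ranks within a library, and their unscaled values are given as description. Peak lengths and covered bases were compared in bp and were not scaled to depth.

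Gene spans came from RefSeq (GRCm38.p6), and strands from its promoter table or, for Fzd2, Fzd3, Fzd6 and Fzd8, from GENCODE. The TSS was the outer end of the span, and an overlap of 1 bp counted. Peaks of all libraries were merged into regions. Differences were fitted with limma 3.58.1 in R 4.3.3 (lmFit, eBayes, Benjamini-Hochberg) after the step had been tested on simulated data, with a pseudocount of 200 bp for covered bases. The libraries are separate samples by label, so p-values measure the spread between them. Scripts ran in Python 3.11.15. The members and gene lists were chosen with earlier results of these data known. All 10 Frizzled genes were named, as were regions at a promoter, highest by fold in their locus or separating the genotypes, and pathway genes called in some libraries only. Regions called in 2 libraries, those in Fzd9 and Tmem135, and the nearest peaks of genes called in none were added after their values were seen. Alternatives were other windows, thresholds, rank definitions, a depth covariate, a replicate block and leaving out each library.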

Additional observations from a re-analysis of the deposited data

Results flagged for a closer look

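In the 4 Nedd4L-cKO libraries, 1 of 40 Frizzled values examined (pileup percentile, fold percentile, peak length and covered bases of 10 genes) had a library that stood apart by Dixon's test at the 95% level. For the Fzd6 promoter, Nedd4L-cKO replicate 3 had a pileup percentile of 43.4, against 54.4 to 55.9 in the other 3, and the gap took a share of 0.877 of the range. Chance alone flags about 1 in 20 such groups. The 3 WT libraries, too few for this test, ranged from 39.3 to 48.7 and so included the value.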

How the results depend on the processing

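The count of 10 Frizzled promoters open in all libraries did not change with a TSS window of 2.5 kb, the same number of peaks per library, peaks that hold a narrow peak or any library left out (10 to 10), and was 9 at a -log10 q of at least 5. The count of Frizzled regions past the adjusted threshold was 0 under all 13 alternatives, 6 of which were settings and 7 a library left out. The median of the 10 genes moved to the 28.1 percentile by fold and the 58.7 percentile by pileup when ranked among promoter peaks alone. No difference between the genotypes in a Frizzled region or locus passed the adjustment under any alternative run, so a change of sign below is one of values that did not pass. Promoter shifts changed sign when ranked by pileup in Fzd2 (-0.045) and Fzd5 (-0.023) and with depth as a covariate in Fzd3 (0.030). Covered bases changed sign for the gene span alone in Fzd2 (-0.048) and Fzd9 (-0.11), for 50 kb flanks in Fzd9 (-0.011) and Fzd10 (-0.093), at a -log10 q of at least 5 in Fzd4 (0.048), Fzd5 (0.019) and Fzd6 (0.11), and with depth as a covariate in Fzd2 (-0.023) and Fzd9 (-0.013). The cause was not tested. With the replicate number as a block, in which Nedd4L-cKO replicate 4 has no partner, the sign changed for the Fzd3 promoter (0.10) and for the covered bases of Fzd3 (-0.047) and Fzd9 (-0.044). The numbers did not pair the samples, as the deviations of libraries with the same number correlated at -0.12, 0.033 and -0.12, and 1 of 6 libraries correlated best with the library of their own number. The block changed no other sign and no adjusted call. With each library left out, promoter shifts crossed 0 in Fzd2 (-0.10 to 0.20), Fzd3 (-0.11 to 0.10), Fzd4 (-0.049 to 0.19), Fzd7 (-0.18 to 0.069), Fzd8 (-0.20 to 0.0097) and Fzd10 (-0.46 to 0.14), and covered bases crossed 0 in Fzd1 (-0.13 to 0.13), Fzd2 (-0.097 to 0.067), Fzd3 (-0.047 to 0.19), Fzd4 (-0.088 to 0.0011), Fzd7 (-0.019 to 0.16) and Fzd9 (-0.044 to 0.038). Differences within the intervals given could not be told from 0 with these libraries. As the intervals are not adjusted over all regions or loci, larger differences could also have been missed.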
